A study of Mus musculus with 6 samples.

Results

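Naive CD4 T cells of the lymph nodes of pregnant mice were described by droplet-based single-cell RNA sequencing. They were the cells that the deposited annotation calls CD4+ Naive T, 1703 of 7300 cells after identical copies had been counted once. Naive CD4 T cells are helper T cells that left the thymus and have not yet met their antigen. They circulate between blood and lymph nodes, which they enter with the help of CCR7, stay quiescent through factors such as TCF1 and LEF1, and survive on interleukin-7 and weak signals from self peptides. Aire drives the display of tissue antigens in thymic epithelium and in some peripheral cells, and so bears on which T cells reach this pool and how they are kept tolerant.

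The mice carried Aire-DTR, in which diphtheria toxin removes cells that express Aire, or were WT. There were 4 Aire-DTR mice (mice 8, 36, 4 and 7) and 3 WT mice (mice 6, 97 and 1). All 7 dams had been mated with BALB/c males, and dams of both genotypes received diphtheria toxin over the first 9 days of pregnancy. The uterine-draining lymph node (udLN) and the brachial lymph node (brLN), a node of the upper limb, were taken from each dam at embryonic day 9.5. The deposited cell table records resorbed pregnancy for Aire-DTR mouse 4 and IUGR for the other Aire-DTR mice, so genotype and pregnancy outcome cannot be told apart. Mice 8 and 6 were loaded as pool 1, mice 36 and 97 as pool 2, and mice 4, 7 and 1 as pool LN, with 2 wells per pool. Aire itself gave 1 UMI in 1703 naive CD4 T cells and 8 UMIs in 7300 cells, so these cells do not check the depletion.

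Well 1 of pool LN stood in the deposited matrix more than once. Of 9427 deposited cells, 2127 were exact copies of cells of that well, 546 of them naive CD4 T cells, and each was counted once. A further 208 barcodes occurred in more than 1 well, 21 of them in the class, and none of these pairs had identical counts. The class held 5037975 UMIs, with a median of 2903 UMIs (range 242 to 7650) and 1180 genes (range 187 to 2344) per cell. The sums per mouse and node used for gene tests held 52, 221, 163 and 302 cells in brLN of Aire-DTR mice 8, 36, 4 and 7, and 63, 158 and 204 cells in brLN of WT mice 6, 97 and 1. In udLN they held 50, 90, 179 and 81 cells of the Aire-DTR mice in the same order, and 31 and 105 cells of WT mice 6 and 1. The udLN of WT mouse 97 gave 4 cells of the class and was left out of gene tests by node, while the sums over both nodes of a mouse hold these cells.

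The class showed the transcripts its name calls for. Igfbp4, a secreted insulin-like growth factor binding protein, reached 1215 CPM (UMI counts scaled to a common library total) in the class, against 379 CPM in naive CD8 T cells. Cd4, the coreceptor for MHC class II, stood at 217 CPM in the class, 2.53 CPM in naive CD8 T cells and 6.71 CPM in B cells. The other CD4 classes held it too, at 181 CPM in CD4+ Mem T cells and 118 CPM in CD4+ Treg cells. Ccr7, the lymph node homing receptor, stood at 617 CPM in the class and 494 CPM in naive CD8 T cells, and Lef1, a transcription factor of naive T cells, at 626 CPM and 497 CPM in the same classes. Cd4 and Igfbp4 therefore differed most from naive CD8 T cells, while Ccr7 and Lef1 were shared with them. These values describe the class, since its name came from the same cells, and no test was made of it. On genome build GRCm38, Cd4 lies at chr6:124864692-124888221, Lef1 at chr3:131110471-131224356, Igfbp4 at chr11:99041244-99054392 and Ccr7 at chr11:99144196-99155077.

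With every cell thinned to 1500 UMIs, which left out 80 shallower cells of the class, Cd4 was detected in 27.7%, Ccr7 in 57.1%, Lef1 in 58.8% and Igfbp4 in 59.6% of 1623 naive CD4 T cells. Before thinning the shares were 44.7% for Cd4, 76.7% for Ccr7, 79.0% for Lef1 and 70.3% for Igfbp4. In naive CD8 T cells, with a median of 3446.5 UMIs, Cd4 was detected in 0.160% of thinned cells, Ccr7 in 51.2%, Lef1 in 49.9% and Igfbp4 in 32.6%. In B cells, with a median of 2261 UMIs, the thinned shares were 0.821% for Cd4, 22.0% for Ccr7, 2.51% for Lef1 and 1.69% for Igfbp4. At this depth 93 of the 1623 cells held all 4 markers, 424 held 3, 640 held 2, 375 held 1 and 91 held none.

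**Figure D1:**
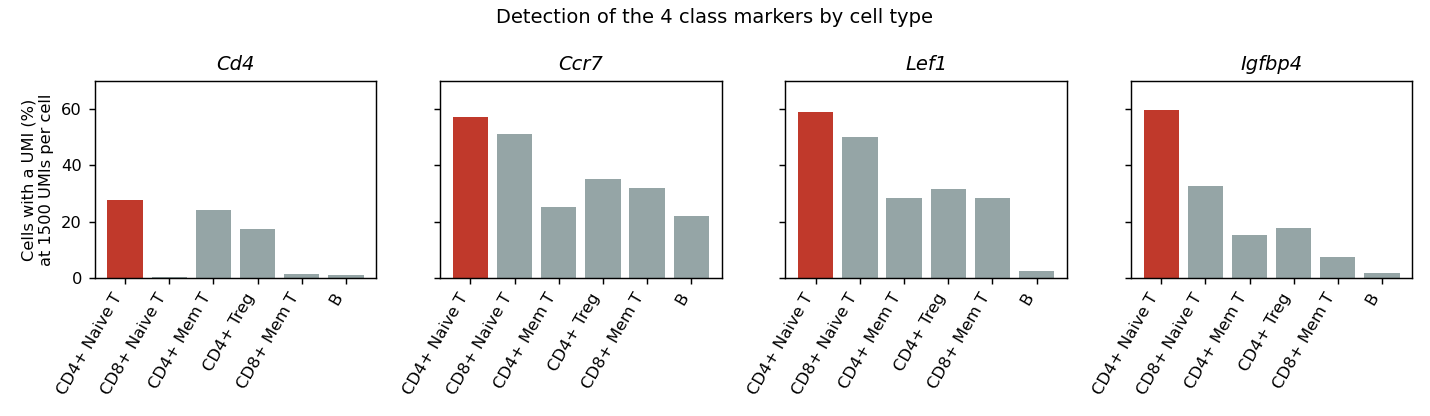
Share of cells (%) with a UMI of Cd4, Ccr7, Lef1 or Igfbp4 after thinning each cell to 1500 UMIs, with naive CD4 T cells in red and 5 other deposited classes in grey. Cd4 was at 27.7% in naive CD4 T cells and 0.160% in naive CD8 T cells, while Ccr7 was at 57.1% and 51.2%, and Lef1 at 58.8% and 49.9%, in the same classes.

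Most transcripts that mark the other cells of the sort were low. S100a4, a calcium-binding protein of memory T cells, and Ncr1, an NK cell receptor, had 0 UMIs in 1703 cells. Cxcr3, a receptor of effector cells, stood at 1.79 CPM, Ccl5 at 6.35 CPM and Mki67, a gene of dividing cells, at 0.794 CPM. Foxp3, which defines regulatory T cells, stood at 5.16 CPM in the class and 455 CPM in CD4+ Treg cells. Cd79a, a B cell receptor subunit, stood at 10.1 CPM in the class and 4711 CPM in B cells, and Cd8b1, a CD8 chain, at 53.2 CPM in the class and 1915 CPM in naive CD8 T cells. In all, 238 of 1703 cells of the class held a UMI of Cd79a, Cd79b, Ms4a1, Cd8a or Cd8b1. Cst3, a cystatin listed with the myeloid markers, stood at 95.7 CPM in the class, 94.6 CPM in naive CD8 T cells and 2861 CPM in myeloid cells, and Itgb1, an integrin chain, at 23.4 CPM in the class and 286 CPM in CD4+ Mem T cells.

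Genes with at least 50 CPM in the class were ranked over all other cells, with T cell receptor segments left out. Among them the most raised were Pdlim4, Ly6c1, Cd4, Cd40lg, St8sia6 and Igfbp4. Pdlim4, a cytoskeletal adaptor, reached 106 CPM in the class, 5.79 CPM in all other cells together and 2.68 CPM in naive CD8 T cells. Ly6c1, a GPI-anchored surface antigen, stood at 225 CPM in the class and 2.38 CPM in naive CD8 T cells, and was at 295 CPM in CD4+ Treg cells. Cd40lg, the CD40 ligand of helper T cells, stood at 150 CPM in the class and 1.93 CPM in naive CD8 T cells. It was at 162 CPM in CD4+ Mem T cells, above the class. Zbtb7b, which encodes the CD4 lineage factor ThPOK, stood at 50.8 CPM in the class and 0.446 CPM in naive CD8 T cells. It was shared with CD4+ Treg cells, at 50.1 CPM, and CD4+ Mem T cells, at 40.2 CPM. Cd28, the costimulatory receptor, Cd5, a receptor that tracks the strength of self recognition, and Tcf7, which encodes TCF1, were among the 25 leading genes, at 209, 281 and 431 CPM in the class and 69.1, 104 and 317 CPM in naive CD8 T cells.

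Among the cells of the class, thinned to 1500 UMIs, most genes varied little beyond counting. The variance over the mean had a median of 1.04 over 1895 genes with a mean of at least 0.1 UMIs per cell. T cell receptor segments, of which each cell uses few, made up 14 of the 20 most variable genes. The other highly variable genes included Lars2 (25.9), a mitochondrial leucyl-tRNA synthetase, Hbb-bs (20.2), a beta globin of red cells, Gm20594 (4.33), the interferon-induced Ifi27l2a (3.28) and Igfbp4 itself (2.83).

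The share of naive CD4 T cells in the nodes did not differ detectably between genotypes. In brLN the class made up 17.9, 22.7, 20.8 and 28.5% of all cells in Aire-DTR mice 8, 36, 4 and 7, and 24.8, 17.9 and 27.4% in WT mice 6, 97 and 1. The means were 22.5% ± 4.46 in Aire-DTR mice (SD, n = 4) and 23.4% ± 4.90 in WT mice (SD, n = 3; exact two-sided permutation p = 0.857). In udLN the shares were 16.0, 25.9, 25.2 and 24.5% in the Aire-DTR mice, and 20.4, 8.33 and 25.5% in the WT mice (exact two-sided permutation p = 0.457). The low WT value came from mouse 97, whose udLN held 48 cells in all. The groups overlapped in both nodes, and with 4 against 3 mice the smallest p that this test can give is 0.0571. edgeR's quasi-likelihood test on the numbers of 9 cell types gave a log2 difference of -0.06 (SE 0.19, adjusted p = 0.848) in brLN and 0.06 (SE 0.24, adjusted p = 0.952) in udLN.

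Within CD4 T cells of brLN, naive cells made up 57.1, 64.1, 66.3 and 71.6% in Aire-DTR mice and 75.0, 66.9 and 76.7% in WT mice. The means were 64.8% ± 5.97 in Aire-DTR mice (SD, n = 4) and 72.9% ± 5.21 in WT mice (SD, n = 3; exact two-sided permutation p = 0.114). Within each pool the Aire-DTR mice lay below the WT mouse, while across pools Aire-DTR mouse 7 lay above WT mouse 97. The permutation does not take pool into account. CD4+ Mem T cells, which share this denominator, took a larger part of all brLN cells in Aire-DTR mice (log2 difference 0.83, SE 0.24, adjusted p = 0.0186, edgeR). In udLN naive cells made up 58.1, 58.1, 61.1 and 66.9% of CD4 T cells in Aire-DTR mice, and 56.4 and 67.7% in WT mice 6 and 1 (exact two-sided permutation p = 1.0). Each share carries its own counting error, which is drawn as an interval in the plot of shares by mouse and node.

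**Figure D2:**
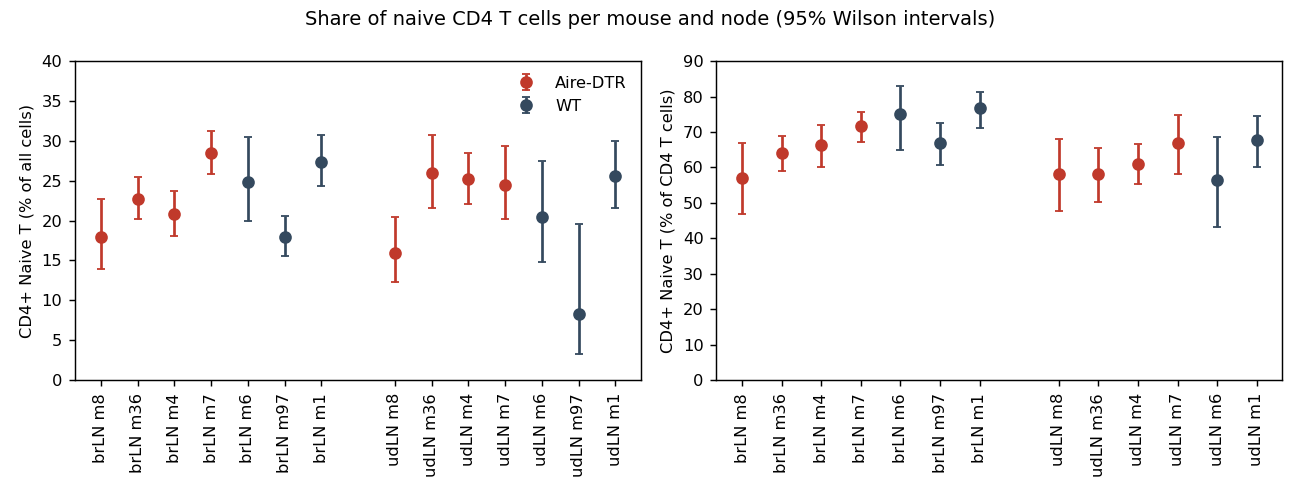
Share of naive CD4 T cells (%) among all cells, left, and among CD4 T cells, right, per mouse (m) and node, with 95% Wilson intervals that cover counting error alone, for Aire-DTR mice in red and WT mice in blue. Aire-DTR and WT mice overlap in every panel and node; the udLN of WT mouse 97, with 9 CD4 T cells, is left out on the right.

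Depth and marker detection were set side by side, in groups too small for an exact permutation p below 0.05. Median UMIs per cell averaged 3082 ± 190 in Aire-DTR mice and 3051 ± 468 in WT mice in brLN (SD, n = 4 and 3; exact permutation p = 0.857). In udLN they averaged 2880 ± 198 in Aire-DTR mice and 2813 ± 381 in WT mice (SD, n = 4 and 2; exact permutation p = 0.8). Cd4 was detected in 31.1% ± 8.84 of thinned udLN cells in Aire-DTR mice and 20.1% ± 0.143 in WT mice (SD, n = 4 and 2). Those groups did not overlap, which is the smallest p, 0.133, that an exact permutation of 4 against 2 mice can give. Nor did they overlap at 1000 UMIs. Without thinning they overlapped, at 46.1% ± 7.60 in Aire-DTR mice and 43.4% ± 11.6 in WT mice (SD, exact permutation p = 0.667). At 1500 UMIs Cd4 in brLN, and Ccr7, Lef1 and Igfbp4 in both nodes, overlapped between genotypes.

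In brLN 2 of 4625 genes differed between Aire-DTR and WT naive CD4 T cells, which is 0.0432% of the genes tested (edgeR's quasi-likelihood test with pool as a term, adjusted p below 0.05). Rbm3, an RNA-binding protein that is induced by mild cold, was higher in Aire-DTR cells, and Hbb-bs, a beta globin, was lower (1 gene or 0.0216% in each direction). At an unadjusted p below 0.05 edgeR listed 219 genes (4.74%), and DESeq2 called 0 genes, with 50 below an unadjusted 0.05.

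Rbm3 (chrX:8138975-8145880, GRCm38) stood at 803, 884, 791 and 685 CPM in brLN naive CD4 T cells of Aire-DTR mice 8, 36, 4 and 7, and at 581, 704 and 569 CPM in those of WT mice 6, 97 and 1. Aire-DTR mice 8, 36 and 4 lay above every WT mouse, and mouse 7 lay below WT mouse 97. Rbm3 averaged 791 ± 81.8 CPM in Aire-DTR and 618 ± 74.7 CPM in WT mice (SD, n = 4 and 3), a log2 difference of 0.38 (SE 0.08, adjusted p = 0.0469, edgeR). Within pools the log2 ratio of Aire-DTR over WT was 0.47 in pool 1, 0.33 in pool 2 and 0.38 in pool LN. The difference kept its sign in 20 of 20 alternative analyses, with log2 values between 0.34 and 0.44, but passed the threshold in 6 of them. It passed without mouse 7 (adjusted p = 0.015, edgeR) and no longer without any other single mouse (adjusted p between 0.137 and 0.359). The call was also lost with the node fitted alone (adjusted p = 0.107, edgeR). It was lost too with limma-voom and mouse as a random effect (adjusted p = 0.692). These fits do not take both nodes of a mouse as independent, and neither do the sums per mouse, where Rbm3 passed as given below. DESeq2 (adjusted p = 0.417) and the fit without pool lost the call as well.

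In udLN Rbm3 stood at 820, 886, 661 and 714 CPM in Aire-DTR mice 8, 36, 4 and 7, and at 527 and 528 CPM in WT mice 6 and 1. These groups did not overlap, but the difference did not pass the threshold (log2 difference 0.48, SE 0.12, adjusted p = 0.304, edgeR). Over both nodes summed per mouse it did pass, at 0.38 (SE 0.07, adjusted p = 0.0166, edgeR). The summed levels were 811, 885, 724 and 690 CPM in Aire-DTR mice, and 564, 709 and 555 CPM in WT mice. That call was lost without mouse 6 (adjusted p = 0.203) or mouse 8 (adjusted p = 0.204), and kept without each of the other mice (edgeR). The test of whether the Rbm3 difference depended on the node gave 0.08 (SE 0.15, adjusted p = 0.995, edgeR).

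Rbm3 was set beside other classes in brLN. Naive CD8 T cells of brLN held 724, 852, 793 and 652 CPM of Rbm3 in Aire-DTR mice 8, 36, 4 and 7, and 547, 644 and 559 CPM in WT mice 6, 97 and 1. B cells held 800, 927, 898 and 785 CPM in Aire-DTR mice, and 618, 672 and 668 CPM in WT mice. In both classes every Aire-DTR mouse lay above every WT mouse. The share of all genes that separate in this way was not computed for these classes, which come from the same mice. In naive CD4 T cells of brLN, 27 of 567 genes (4.76%) with a mean of at least 200 CPM separated in either direction. CD4+ Mem T cells held 957, 1201, 934 and 909 CPM in Aire-DTR mice and 658, 999.8 and 836 CPM in WT mice, where WT mouse 97 lay above Aire-DTR mice 8, 4 and 7. The difference between naive CD4 and naive CD8 T cells in the Rbm3 response was -0.01 (SE 0.09, adjusted p = 0.999, edgeR), so no difference between the classes was detected. Over all 6877 genes, this test of genotype by class called 0 genes in edgeR (0.0%), with 309 (4.49%) below an unadjusted 0.05, and 0 in DESeq2. Cirbp, the other gene of the cold-inducible pair, did not pass in either node (brLN log2 difference 0.20, adjusted p = 0.979, udLN 0.19, adjusted p = 1.0, edgeR). It stood at 207, 207, 187 and 197 CPM in brLN of Aire-DTR mice, and at 144, 139 and 210 CPM in WT mice.

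Hbb-bs (chr7:103826534-103828096) in brLN stood at 461, 607, 6.29 and 5.46 CPM in Aire-DTR mice 8, 36, 4 and 7, and at 639, 1160 and 8.88 CPM in WT mice 6, 97 and 1. The values of pool LN were all below 10 CPM and those of the other pools all above 460 CPM. Its log2 difference was -0.80 (SE 0.13, adjusted p = 0.000516, edgeR), and without the pool term it no longer passed (adjusted p = 1.0). The call was also lost without mouse 36 (adjusted p = 1.0) or mouse 97 (adjusted p = 0.841). Summed over the 5 erythroid genes listed, levels in brLN were 679, 797, 8.39 and 8.74 CPM in Aire-DTR mice, and 842, 1409 and 12.4 CPM in WT mice. Hbb-bs UMIs occurred in 31.6% of naive CD4 T cells, 31.4% of naive CD8 T cells and 39.7% of B cells, types that do not make globin. Hbb-bs is nearly identical to Hbb-bt, so the level of either gene is uncertain.

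By p, Lars2, a mitochondrial leucyl-tRNA synthetase, and Rnps1, an RNA-binding protein of splicing, came next without passing the threshold. Lars2 had a log2 difference of -0.23 (SE 0.05, adjusted p = 0.122, edgeR) and Rnps1 of -0.59 (SE 0.16, adjusted p = 0.361). Nrm (1.23, SE 0.36) and Zfp277 (1.03, SE 0.31) shared an adjusted p of 0.663 (edgeR) with Il7r and Tagln2. Il7r, the interleukin-7 receptor, stood at 614, 471, 373 and 498 CPM in brLN of Aire-DTR mice 8, 36, 4 and 7, and at 374, 435 and 332 CPM in WT mice 6, 97 and 1 (log2 difference 0.37, SE 0.11, adjusted p = 0.663, edgeR). Mouse 4 lay inside the WT range, so the groups overlapped. In udLN Il7r stood at 672, 495, 399 and 447 CPM in Aire-DTR mice, and at 378 and 391.6 CPM in WT mice, without overlap and without passing (adjusted p = 0.966, edgeR). Tagln2, an actin-binding protein, did not overlap in either node. It stood at 248, 304, 315 and 265 CPM in Aire-DTR mice and 333, 399 and 368 CPM in WT mice in brLN (log2 difference -0.38, SE 0.12, adjusted p = 0.663, edgeR). In udLN it stood at 275, 278, 361 and 403 CPM in Aire-DTR mice and 537 and 420 CPM in WT mice. Over both nodes summed, Tagln2 had an adjusted p of 0.251 (edgeR).

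Pdcd4, an inhibitor of translation, stood at 248, 219, 216 and 222 CPM in brLN of Aire-DTR mice and 158, 156 and 176 CPM in WT mice, without overlap (log2 difference 0.45, SE 0.14, adjusted p = 0.673, edgeR). Itgal, the alpha chain of the integrin LFA-1, stood at 88.6, 72.5, 86.0 and 86.3 CPM in Aire-DTR mice and 58.5, 55.4 and 60.4 CPM in WT mice (log2 difference 0.52, SE 0.21, adjusted p = 0.953, edgeR). Ddit4, a stress-induced inhibitor of mTORC1, ranged from 151 to 395 CPM in Aire-DTR mice and from 198 to 429 CPM in WT mice (log2 difference -0.50, SE 0.15, adjusted p = 0.673, edgeR). Id3, an inhibitor of E proteins, ranged from 124 to 159 CPM in Aire-DTR mice and from 53.3 to 128 CPM in WT mice. Among 567 genes with a mean of at least 200 CPM, 27 (4.76%) did not overlap between genotypes in brLN and 60 (10.6%) did not overlap in udLN. Single genes without overlap are read against those shares, which do not cover genes under 200 CPM such as Itgal and Dtx1. A random split of the mice gives no overlap with a probability of 0.0571 for 4 against 3 mice and 0.133 for 4 against 2. Both shares lie under these values.

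**Figure D3:**
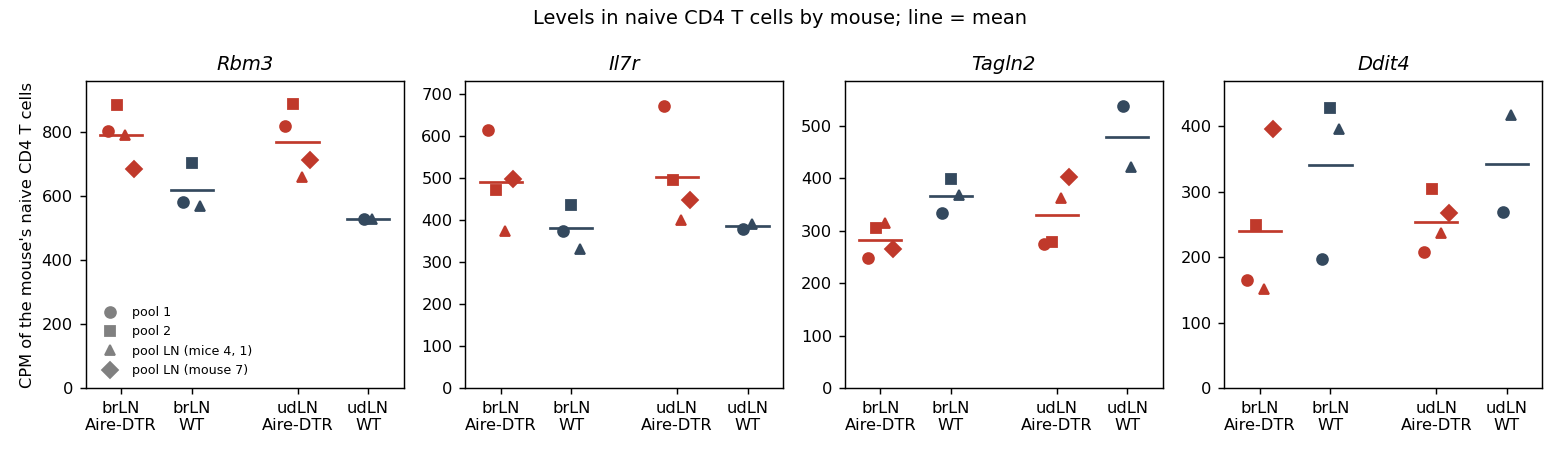
Levels (CPM) of Rbm3, Il7r, Tagln2 and Ddit4 in naive CD4 T cells of each mouse, by node and genotype, with Aire-DTR left of WT, symbols for pools and lines for means. For Rbm3, Aire-DTR mice lie between 661 and 886 CPM over both nodes and WT mice between 527 and 704 CPM, and for Ddit4 the groups overlap in both nodes.

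The genes that define the naive state did not pass in either node. In brLN the log2 difference was 0.11 for Cd4, -0.03 for Ccr7, -0.07 for Lef1 and 0.01 for Igfbp4 (SE between 0.09 and 0.14, adjusted p between 0.979 and 1.0, edgeR). Ccr7 was close in every mouse, at 603, 597, 598 and 586 CPM in Aire-DTR and 576, 629 and 636 CPM in WT mice. In udLN the values were 0.34 for Cd4, -0.27 for Ccr7, 0.03 for Lef1 and -0.27 for Igfbp4, with SE between 0.12 and 0.22 and an adjusted p of 0.966 or above (edgeR). Cd69, an early activation marker, had a log2 difference of -0.05 in brLN (SE 0.17, adjusted p = 0.998, edgeR) and -0.20 in udLN (SE 0.27, adjusted p = 1.0). Cd44, a marker of antigen experience, reached 12.6 to 23.2 CPM in brLN of Aire-DTR mice and 12.8 to 16.0 CPM in WT mice.

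No listed pathway held a called gene other than Rbm3 and Hbb-bs in brLN. Of 11 naive T cell transcription factors tested in brLN, 5 had higher and 6 lower estimates, with a median log2 difference of -0.01, beside 2325 higher and 2300 lower estimates and a median of 0.00 over all 4625 genes. Of 13 quiescence and survival genes 7 were higher and 6 lower (median 0.01), and of 15 genes of the T cell receptor complex and CD4 lineage 5 were higher and 10 lower (median -0.04). Of 6 genes of recent receptor signalling 5 were higher and 1 lower (median 0.08), and in udLN 1 was higher and 5 lower (median -0.20). Of 17 type I interferon genes 11 were higher and 6 lower (median 0.07), and in udLN 8 were higher and 9 lower (median -0.03). Of 8 genes of early activation and memory 1 was higher and 7 lower in brLN (median -0.06), among them Crip1, a LIM-domain protein (log2 difference -0.26, SE 0.08, adjusted p = 0.673, edgeR). Of 4 anergy and inhibitory receptor genes 2 were higher and 2 lower, among them Dtx1, an E3 ligase linked to anergy (log2 difference -0.63, SE 0.23, adjusted p = 0.862, edgeR). Dtx1 stood at 29.5, 36.2, 52.5 and 38.2 CPM in brLN of Aire-DTR mice and 72.0, 55.4 and 64.0 CPM in WT mice. In udLN its log2 difference was 0.20 (SE 0.33, adjusted p = 1.0, edgeR), of the opposite sign.

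In udLN 3 of 4625 genes differed between genotypes (0.0649%, edgeR, adjusted p below 0.05). They were the T cell receptor beta segment Trbv15, higher in Aire-DTR cells (0.0216%), and the segment Trbv16 and the gene model Gm20594, lower (0.0432%). An unadjusted p below 0.05 was reached by 229 genes (4.95%), and DESeq2 called 0, with 81 below an unadjusted 0.05. The udLN comparison had 4 Aire-DTR mice and 2 WT mice.

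Trbv15, a variable segment used by a small part of T cells, was carried by 4 of 50, 2 of 90, 8 of 179 and 4 of 81 naive CD4 T cells in udLN of Aire-DTR mice 8, 36, 4 and 7. In udLN of WT mice it was carried by 0 of 31 cells of mouse 6 and 1 of 105 cells of mouse 1, counting cells with at least 1 UMI. The WT cell held 1 UMI, and a cell without a UMI may still use the segment. The edgeR difference of 5.55 (SE 0.78, adjusted p = 1.62e-05) rests on 159 UMIs in Aire-DTR and 1 UMI in WT cells. The call was lost with limma-voom and mouse as a random effect (adjusted p = 0.998), with DESeq2 (0.177) and with cells holding a Cd4 UMI (0.792), and without mouse 1 the log2 difference was 8.94. In brLN, Trbv15 stood at 59.1 to 123 CPM in Aire-DTR mice and 62.2 to 166 CPM in WT mice. Trbv16 was carried by 2, 5, 10 and 6 cells in udLN of Aire-DTR mice 8, 36, 4 and 7, and by 3 and 12 cells of WT mice 6 and 1 (log2 difference -1.31, SE 0.28, adjusted p = 0.0274, edgeR). The Trbv16 call was lost without mouse 1 (adjusted p = 0.624) or mouse 4 (adjusted p = 0.22) and with limma-voom and mouse as a random effect (0.29). Trbv14 was the other gene called over both nodes summed, where 2 of 7108 genes differed (0.0281%, and 0.0141% in each direction, with 349 or 4.91% below an unadjusted 0.05 in edgeR and 0 called by DESeq2). It stood at 15.7, 17.8, 29.7 and 21.0 CPM in Aire-DTR mice and 68.2, 54.0 and 54.7 CPM in WT mice (log2 difference -1.36, SE 0.24, adjusted p = 0.0138, edgeR), on 5 to 29 UMIs per Aire-DTR mouse and 22 to 46 per WT mouse. In brLN Trbv14 was carried by 1, 2, 3 and 3 cells of Aire-DTR mice 8, 36, 4 and 7. In brLN of WT mice 6, 97 and 1 it was carried by 2, 5 and 4 cells. In udLN it was carried by 1, 2, 1 and 1 cells of the Aire-DTR mice in the same order. For WT mice 6, 97 and 1 the udLN numbers were 0, 1 and 4. The Trbv14 call was lost without mouse 6 (adjusted p = 0.14) or mouse 8 (adjusted p = 0.163).

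Gm20594 (chr6:79817916-79818364) stood at 820, 795, 936 and 959 CPM in udLN of Aire-DTR mice 8, 36, 4 and 7, and at 2268 and 1186 CPM in WT mice 6 and 1 (log2 difference -0.73, SE 0.12, adjusted p = 0.000274, edgeR). The value of mouse 6 was uneven between its wells, at 3538 CPM in well 1, with 15 cells, and 922 CPM in well 2, with 16 cells. Without mouse 6 the difference was -0.37 and no longer passed (adjusted p = 0.865, edgeR). After the called genes, the smallest p in udLN belonged to Rbm3, Ttyh3, Tmed5, Lgals3bp, Card6, Runx1 and Cep68, with adjusted p between 0.304 and 0.537 (edgeR). Of the gene lists, early activation and memory was led by Vim, the intermediate filament vimentin, at 376, 354, 415 and 447 CPM in Aire-DTR and 507 and 571 CPM in WT mice (log2 difference -0.44, SE 0.15, adjusted p = 0.656, edgeR). Klf3, a transcription factor of naive T cells, stood at 181, 133, 148 and 118 CPM in Aire-DTR and 119 and 93.4 CPM in WT mice (adjusted p = 0.966, edgeR).

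The nodes of the same mouse could be set against each other in 6 mice, 4 Aire-DTR and 2 WT. Naive CD4 T cells of udLN had more Socs3 and Lars2 and less Dapl1 and Trbv17 than those of brLN. These were 4 of 4481 genes (0.0893%, and 0.0446% in each direction, edgeR with mouse as a block, adjusted p below 0.05), while 263 (5.87%) had an unadjusted p below 0.05 and DESeq2 called 1 gene, Lars2.

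Socs3 (chr11:117966079-117970047), a feedback inhibitor of cytokine receptors that signal through STAT3, stood at 154, 160, 142 and 96.3 CPM in udLN of Aire-DTR mice 8, 36, 4 and 7, against 106, 55.1, 37.8 and 66.6 CPM in brLN of these mice. In WT mice 6 and 1 it stood at 109 and 101 CPM in udLN, against 122 and 37.3 CPM in brLN. It was higher in udLN in 5 of 6 mice, WT mouse 6 being the exception (log2 difference 1.06, SE 0.18, adjusted p = 0.00127, edgeR). The call was lost without mouse 36 (log2 difference 0.93, adjusted p = 0.086) and without well 1 of pool LN (0.91, adjusted p = 0.156).

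Dapl1 (chr2:59484653-59505020), a transcript of resting naive T cells, stood at 228, 160, 206 and 210 CPM in udLN of Aire-DTR mice 8, 36, 4 and 7, against 213, 316, 327 and 288 CPM in brLN. In WT mice 6 and 1 it stood at 239 and 201 CPM in udLN, against 266 and 275 CPM in brLN. It was lower in udLN in 5 of 6 mice, mouse 8 being the exception (log2 difference -0.54, SE 0.11, adjusted p = 0.0129, edgeR). Without mouse 4 the adjusted p was 0.127, without mouse 36 it was 0.27, and without well 1 of pool LN it was 0.156.

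Lars2 (chr9:123366927-123462666) stood at 6200, 5984, 4560 and 5017 CPM in udLN of the Aire-DTR mice, against 4383, 4964, 3806 and 4584 CPM in brLN. In WT mice 6 and 1 it stood at 6484 and 5911 CPM in udLN, against 5487 and 5039 CPM in brLN. It was higher in udLN in 6 of 6 mice (log2 difference 0.24, SE 0.04, adjusted p = 0.000462, edgeR). It was also uneven between wells of 1 sample, at 2915 CPM in well 1 and 9064 CPM in well 2 of the udLN of mouse 1. Without well 1 of pool LN its difference was 0.29 with an adjusted p of 0.156 (edgeR). Trbv17 was carried by 1, 0, 4 and 0 udLN cells and 1, 3, 3 and 4 brLN cells of Aire-DTR mice 8, 36, 4 and 7, and by 0 and 0 udLN cells and 1 and 5 brLN cells of WT mice 6 and 1 (log2 difference -1.84, SE 0.37, adjusted p = 0.0129, edgeR). The Trbv17 call was lost without mouse 7 (adjusted p = 0.0528), mouse 8 (0.094) or mouse 36 (0.086) and without the mouse block (0.433), and without mouse 4 the log2 difference was -5.46.

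Genes next to the threshold in the node comparison included Tcf7, which encodes TCF1, and Ramp1, a subunit of the CGRP receptor. Tcf7 stood at 423, 628, 463 and 442 CPM in udLN of Aire-DTR mice and 507 and 464 CPM in udLN of WT mice, against 378, 455, 315 and 427 CPM and 374 and 402 CPM in brLN. Both genes were higher in udLN in 6 of 6 mice, without passing the threshold (Tcf7 log2 difference 0.31, SE 0.08, adjusted p = 0.17, Ramp1 0.52, SE 0.12, adjusted p = 0.119, edgeR). Ramp1 ranged from 175 to 209 CPM in udLN and from 99.0 to 154 CPM in brLN of these mice, with no overlap between the nodes. The share of all genes without overlap between the nodes was not computed. Ifi27l2a (log2 difference -0.25, adjusted p = 0.155, edgeR) and Slfn1, a Schlafen family gene of T cell quiescence (-0.41, adjusted p = 0.213), were each lower in udLN in 4 of 6 mice. Prkca, a protein kinase C, had a log2 difference of 0.67 (adjusted p = 0.213, edgeR) and was higher in udLN in 5 of 6 mice. Among 567 genes with a mean of at least 200 CPM, 15 (2.65%) were higher and 15 (2.65%) were lower in udLN in all of these mice. These shares do not cover genes with a lower mean, such as Ramp1.

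**Figure D4:**
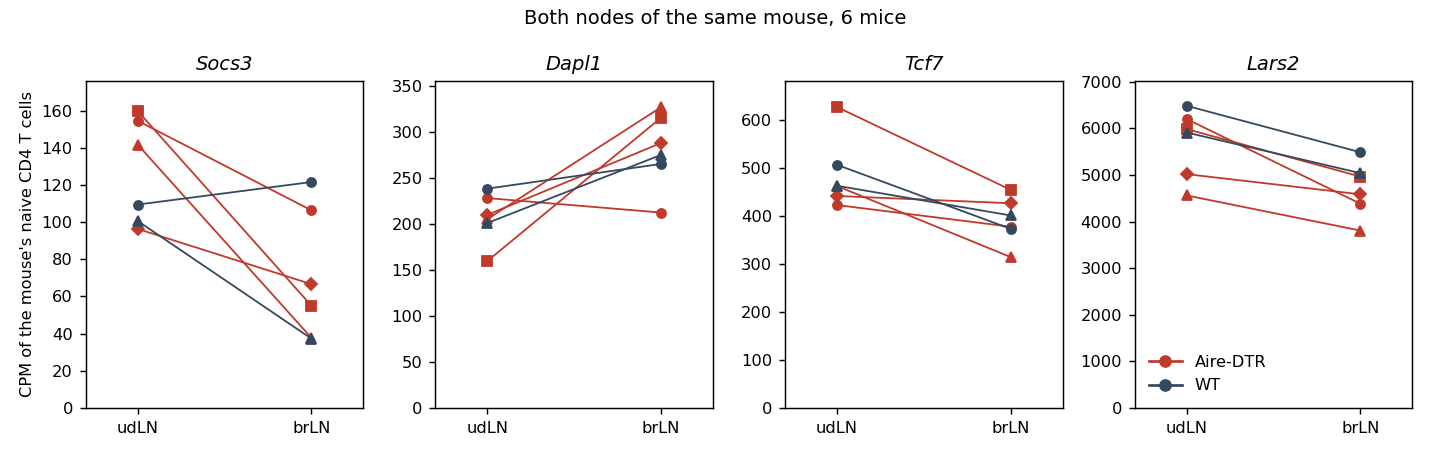
Levels (CPM) of Socs3, Dapl1, Tcf7 and Lars2 in naive CD4 T cells of both nodes of 6 mice, with udLN left of brLN and a line for each mouse, red for Aire-DTR and blue for WT; symbols mark pools as in the plot by genotype. Socs3 was higher in udLN in 5 mice, Dapl1 was lower in 5, and Tcf7 and Lars2 were higher in all 6.

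By function, the 7 tested genes of homing and adhesion all had higher estimates in udLN, with a median log2 difference of 0.13, and none passed. Over all 4481 genes, 2263 estimates were higher and 2218 lower, with a median of 0.00. They included Klf2, which drives the exit receptor S1pr1 (0.14, SE 0.06, adjusted p = 0.751, edgeR), and Ccr7 (0.13, SE 0.07, adjusted p = 0.868). Klf2 was higher in udLN in 6 of 6 mice. The 6 tested genes of recent receptor signalling all had lower estimates in udLN (median -0.19), led by Myc (-0.39, SE 0.18, adjusted p = 0.795, edgeR). Of 17 type I interferon genes 4 were higher and 13 lower (median -0.14), and of 8 Gimap GTPases, regulators of lymphocyte survival, 7 were higher and 1 lower (median 0.10). Gimap7 was higher in udLN in 6 of 6 mice (0.52, SE 0.17, adjusted p = 0.487, edgeR). Lat, an adaptor of the T cell receptor, was higher in 6 of 6 mice (0.15, SE 0.06, adjusted p = 0.696), as was Junb, an AP-1 subunit (0.39, SE 0.11, adjusted p = 0.337). Of 4 tested erythroid genes, all had higher estimates in udLN (median 0.49). The 1 tested CD8 gene (0.60) and the 1 NK and cytotoxic gene (0.47) had higher ones too. B cell (median -0.30), Treg (median -0.07) and myeloid genes (-0.16) had lower ones. The 2 CD8 genes summed to 128, 57.1, 150, 26.3, 119 and 25.2 CPM in udLN of mice 8, 36, 4, 7, 6 and 1. In brLN of these mice they summed to 65.0, 50.7, 35.7, 48.0, 22.5 and 67.5 CPM. For genotype in udLN the tested CD8 gene had an estimate of 0.97, without passing. The part of RNA of other cells in these differences was not tested. The markers had differences of 0.19 for Lef1, 0.19 for Igfbp4 and 0.00 for Cd4 (SE 0.07, 0.07 and 0.12, adjusted p = 0.56, 0.652 and 1.0, edgeR).

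The genotype difference itself depended on the node for 4 of 4481 genes (0.0893%, and 0.0446% in each direction, edgeR interaction test, adjusted p below 0.05, 219 or 4.89% below an unadjusted 0.05, and 0 by DESeq2). They were Gm20594 and the receptor segments Trbv15, Trbv16 and Trbv13-3. Trbv13-3 was carried by 5, 7, 10 and 6 udLN cells of Aire-DTR mice 8, 36, 4 and 7, and 1 and 4 udLN cells of WT mice 6 and 1. In brLN it was carried by 3, 12, 7 and 16 cells of the Aire-DTR mice in the same order, and 4, 11 and 22 cells of WT mice 6, 97 and 1. Trbv13-3 lost its call without mouse 1 (log2 1.12, adjusted p = 0.78), Gm20594 without mouse 6 (-0.43, adjusted p = 0.655) and Trbv16 without mouse 4 (-1.17, adjusted p = 0.0709) or mouse 8 (-1.34, adjusted p = 0.127). The Trbv15 interaction was 9.40 without mouse 1 and kept its call without each single mouse. Il7r gave -0.12 in this test (SE 0.18, adjusted p = 0.995, edgeR).

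The class was not uniform for the surface antigen Ly6c1 (chr15:75044018-75048830). At 1500 UMIs per cell 336 of 1623 cells (20.7%) held a Ly6c1 UMI, and from 16.4 to 26.8% did so in each of the 7 mice. The same share was 0.160% in naive CD8 T cells and 0.193% in B cells, and 21.0% in CD4+ Treg cells. In brLN it averaged 18.8% ± 3.49 in Aire-DTR mice and 21.8% ± 2.71 in WT mice (SD, n = 4 and 3; exact permutation p = 0.343). In udLN it averaged 23.0% ± 5.23 in Aire-DTR mice and 19.4% ± 3.93 in WT mice (SD, n = 4 and 2; exact permutation p = 0.533). Ly6c1 is nearly identical to Ly6c2, which stood at 5.96 CPM in the class, so the split between these copies is uncertain.

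Cells with a Ly6c1 UMI held more transcripts of other Ly6 antigens and fewer of Igfbp4 than cells without one. Ly6c1 was chosen for this split after its values had been seen, so the comparison is a description with no test. Of 605 genes with at least 200 CPM in either group, 12 (1.98%) were higher and 13 (2.15%) lower in Ly6c1+ cells in 7 of 7 mice. Ly6a (chr15:74994877-74998031), the stem cell antigen Sca-1, averaged 712 ± 157 CPM in Ly6c1+ cells and 347 ± 80.3 CPM in Ly6c1- cells (SD, n = 7 mice). Ly6e (chr15:74955051-74959905) averaged 1894 ± 339 CPM in Ly6c1+ cells and 1338 ± 109 CPM in Ly6c1- cells. Bst2, an interferon-induced antiviral membrane protein, averaged 217 ± 41.5 CPM in Ly6c1+ cells and 127 ± 14.2 CPM in Ly6c1- cells. Ly6a, Ly6e and Bst2 are all on the list of type I interferon genes. Thy1, the pan-T cell antigen, averaged 875 ± 89.7 CPM in Ly6c1+ cells and 718 ± 42.5 CPM in Ly6c1- cells.

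On the lower side, Igfbp4 averaged 821 ± 214 CPM in Ly6c1+ cells and 1279 ± 169 CPM in Ly6c1- cells (SD, n = 7 mice). Foxp1, a transcription factor of naive T cell quiescence, averaged 188 ± 61.3 CPM in Ly6c1+ cells and 294 ± 48.5 CPM in Ly6c1- cells. Cd6, a receptor that damps T cell receptor signals, averaged 99.0 ± 34.7 CPM in Ly6c1+ cells and 202 ± 20.3 CPM in Ly6c1- cells. These groups did not overlap, and the share of all genes without overlap was not computed for this split. Bcl2, a survival factor, averaged 166 ± 60.3 CPM in Ly6c1+ cells and 247 ± 88.8 CPM in Ly6c1- cells. Cd5 was lower in Ly6c1+ cells in 6 of 7 mice, at 209 ± 79.6 CPM against 310 ± 56.6 CPM in Ly6c1- cells. Izumo1r, the folate receptor 4, was lower in 7 of 7 mice, at 70.2 ± 39.5 CPM in Ly6c1+ and 147 ± 20.5 CPM in Ly6c1- cells, and lies under the level of 200 CPM. Mice 8 and 6 held 19 Ly6c1+ cells each and the other mice 29 to 87. Low levels in Ly6c1+ cells, such as those of Cd6 and Izumo1r, therefore rest on few UMIs per mouse. Ccr7 was higher in 3 and lower in 4 mice, and Lef1 higher in 2 and lower in 5. Before thinning the median depth was 2804.5 UMIs in Ly6c1+ cells and 3006 UMIs in Ly6c1- cells, and a cell without a UMI may still express the gene.

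**Figure D5:**
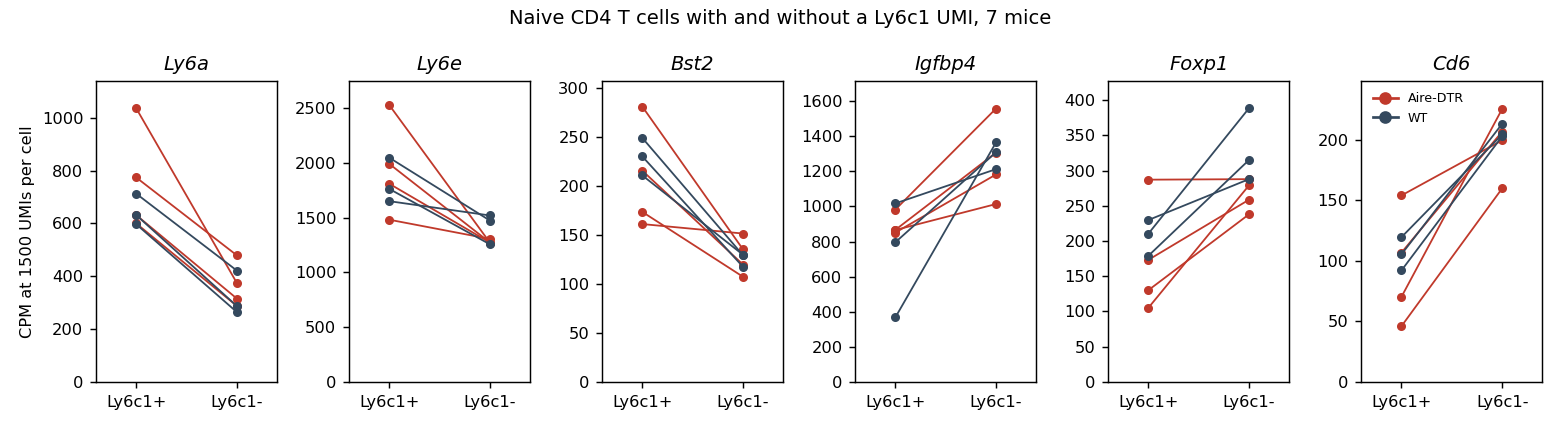
Levels (CPM at 1500 UMIs per cell) of Ly6a, Ly6e, Bst2, Igfbp4, Foxp1 and Cd6 in naive CD4 T cells with a Ly6c1 UMI (Ly6c1+, left) and without one (Ly6c1-, right), with a line for each of 7 mice, red for Aire-DTR and blue for WT. Ly6a, Ly6e and Bst2 were higher in Ly6c1+ cells in every mouse, and Igfbp4, Foxp1 and Cd6 were lower in every mouse.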

How the data were processed

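Node cells of 7 mice were analysed, and uterine cells of pools 1 and 2 were not analysed here. The authors deposited UMI counts per cell and gene, with a table of mouse, tissue, genotype, phenotype and cell type. The tools were kallisto (0.46.1), bustools (0.40.0), Seurat and Scanpy (1.7.0), with build GRCm38, as the submitters' processing notes list them. The sources used here do not give hashtag assignment, cell filters, doublet removal or how types were named. Deposited tables of scaled values were not used here. No doublet caller was run, and cells with B or CD8 marker UMIs were left out in an alternative. Per the labels' protocols, live CD45+ CD3+ cells were sorted, while the series design gives CD45+.

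Exact copies of cells were counted once. Counts of CD4+ Naive T cells were summed per mouse and node with at least 20 cells, filtered with filterByExpr, TMM scaled and tested with edgeR 4.0.16 in R 4.3.3 (quasi-likelihood, Benjamini-Hochberg, adjusted p below 0.05). The genotype fit held both nodes with pool as a term and treated the nodes of 1 mouse as independent. The sums per mouse and the fit of each node alone avoid this. Mouse was the block in the node and interaction fits, since both nodes come from the same animal. Each SE was derived from the log2 difference and its F statistic. CPM values are scaled to the UMI total of each sum, not to gene length. In the genotype fit of both nodes, p-values rest on the spread between mice and between the nodes of a mouse together. In fits with mouse as a block they rest on how differences within a mouse vary between mice. For the sums per mouse, each node alone and the permutations, they measure the spread between these mice. Intervals cover counting error alone. The scripts were tested on simulated data. DESeq2 1.42.0 and limma 3.58.1 served alternatives. Coordinates are from GENCODE, matched by symbol.

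The members, the 23 gene lists and the tests were chosen with earlier results of these data known. The named genes were, per comparison, up to 10 called genes in each direction, the 5 smallest p where fewer than 5 passed, the smallest p of each list in each direction, and a fixed set of markers, of which some are not reported here. The text gives a part of these, picked after their values were seen, as were the floor of 200 CPM and the 2 alternatives on well 1 of pool LN. The Ly6c1 split was also chosen after the values were seen, from the genes most variable between cells, of which Ly6c1 ranked 23. No other split was tried. An edgeR fit of it was run and is not reported, since its groups were chosen on these data. Genes of that split follow the rule of 7 of 7 mice, and Cd5, Izumo1r, Ccr7 and Lef1 were added after their values were seen.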

Additional observations from a re-analysis of the deposited data

Results flagged for a closer look

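In 4 genes the difference between Aire-DTR and WT naive CD4 T cells depended on the node by edgeR's interaction test. The interaction was 5.47 for Trbv15 (adjusted p = 1.08e-05), 1.93 for Trbv13-3 (adjusted p = 0.00167), -1.59 for Trbv16 (adjusted p = 0.00425) and -0.73 for Gm20594 (adjusted p = 0.00127) on the log2 scale. Of these, 3 are receptor segments carried by few cells of each udLN sum, and DESeq2 called none of the 4. Without mouse 1 Trbv13-3 gave an adjusted p of 0.78, without mouse 6 Gm20594 gave 0.655, and without mouse 4 or 8 Trbv16 gave 0.0709 and 0.127 (edgeR).

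In 9 of 108 groups of 4 Aire-DTR mice 1 mouse stood apart from the others, by Dixon's 95% critical value for the gap over the range. Chance alone gives such a value in about 1 in 20 groups. Mouse 8 had the lowest udLN share of naive CD4 T cells, 16.0% of all cells, the lowest Cd69 level in brLN, 53.2 CPM, and the highest Trbv15 level in udLN, 255 CPM. Mouse 36 had the highest Cd4 level, 255 CPM, and the lowest Itgal level, 72.5 CPM, in brLN, and the highest Prkca level, 129 CPM, and the highest Lgals3bp level, 64.7 CPM, in udLN. Mouse 4 had the lowest share of udLN cells with a Lef1 UMI, 54.9% at 1500 UMIs, and the highest Trbv17 level in udLN, 57.9 CPM.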

How the results depend on the processing

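Rbm3 in each node and over both, and Tagln2 in brLN and over both, kept their signs in every alternative run. Most other genes examined did so too, among them Hbb-bs, Il7r and Pdcd4 in brLN, and the alternatives reuse the same mice. Rbm3 in udLN and Tagln2 in brLN passed the threshold in 0 of 20 alternatives. Among single genes, 1085 values kept sign and side of the threshold, 67 lost it, 17 gained it and 35 changed sign. Only called genes could lose it, and the 1085 include values of genes that were never called. For called genes, the alternatives that passed ranged from 6 of 20 for Rbm3 in brLN to 10 of 11 for Trbv15 by node. Against 2 called genes in brLN, DESeq2 and the fit without pool called 0, limma-voom and the node fitted alone 1, and the fit with no low-count filter 5. Against 3 in udLN, DESeq2 called 0, limma-voom 1 and the cells with a Cd4 UMI 2, of which 0 were among the 3. Against 2 over both nodes, DESeq2 and the cells without B or CD8 marker UMIs gave 0, the fit without pool and the deposited matrix 1, the matrix without well 1 of pool LN 6 and no filter 7. Against 4 between nodes, the fit with no mouse block, DESeq2 and the matrix without well 1 gave 1, and no filter 7. Against 4 for genotype by node DESeq2 gave 0, and against 0 for genotype by class no filter gave 4 and the deposited matrix 1. Leaving out 1 mouse gave 0 to 6 calls in brLN, 2 to 3 in udLN, 0 to 13 over both nodes, 1 to 7 between nodes, 3 to 6 for genotype by node and 0 to 3 for genotype by class. The cause of these changes was not tested.

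Values near 0 changed sign. With cells holding a Cd4 UMI, brLN gave 0.097 for Ccr7, -0.016 for Cirbp and -0.166 for Igfbp4, and udLN gave 0.443 for Cd69 and -0.326 for Lef1. Without B or CD8 marker UMIs Ccr7 gave 0.027 in brLN. Igfbp4 in brLN gave -0.006 with limma-voom and -0.027 without well 1, where Cd4 between nodes gave -0.015. Cd69 in brLN gave 0.027 in the deposited matrix, Lef1 in udLN -0.069 with at least 50 cells, and Cd4 between nodes -0.034 with no filter. With no filter, genotype by class gave 0.002 for Il7r and 0.011 for Rbm3. The udLN share gave -0.017 (log2) among T cells. By means per mouse, UMIs per cell differed by -1.11 in brLN and -67.7 in udLN, and genes per cell by -30.8 in udLN. At 1000 UMIs the differences in detection (percentage points) were -1.59 for Cd4 and -0.59 for Ccr7 in brLN, and 7.15 for Lef1 and 2.42 for Igfbp4 in udLN. Without thinning Lef1 gave 0.11 in brLN and 9.22 in udLN.

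Leaving out 1 mouse moved brLN values of Ccr7 between -0.094 and 0.058, Cd4 between -0.042 and 0.317, Cd69 between -0.45 and 0.222, and Igfbp4 between -0.086 and 0.113. It moved Lef1 in udLN between -0.061 and 0.326, Cd4 between nodes between -0.126 and 0.073, and Il7r by node between -0.229 and 0.093. By class it moved Il7r between -0.075 and 0.062 and Rbm3 between -0.046 and 0.017. The log2 share of all cells moved between -0.252 and 0.059 in brLN and -0.107 and 0.265 in udLN, and the share of CD4 T cells between -11.1 and -5.59 percentage points in brLN and -6.68 and 4.70 in udLN. Mouse 97 is not in the node fits, so leaving it out was not run there. The smallest sum held 31 cells, and udLN had 2 WT mice.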
